A study of Mus musculus with 16 samples.

Results

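Bone marrow-derived dendritic cells (BMDCs) labelled Irf3/7-/- were compared with wild-type (WT) BMDCs after both had been treated with the bacterial dinucleotide c-di-GMP. The comparison used 4 of the 16 samples of the series, 2 per group, or 2 of its 8 conditions, chosen by their labelled genotype and treatment. All cells were cultured from the marrow of mice of C57BL/6 background in medium with GM-CSF and IL-4, and the treated cultures received c-di-GMP at 25 µg/ml for 18 h according to the labels. The study's legend for its RNA-seq of BMDCs gives a higher dose, so the dose is not certain. The Irf3/7-/- cells came from double-knockout mice, and treated WT cells were the reference. Untreated cultures of the same 2 genotypes were compared in the same way. Values of the treated Irf1-/- and Tmem173-/- knockout cultures of the series are given beside some genes and markers. Ages were not given per sample, and nothing in the labels says whether the 2 samples of a group came from separate mice. The table held 1 FPKM (fragments mapped to a gene, scaled to its length and to the size of the library) with 1 interval per gene and condition, into which both samples had been combined. No spread between samples and no p-value could therefore be computed. In such bulk samples, fewer cells of a type and less RNA per cell cannot be told apart.

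C-di-GMP binds STING, an endoplasmic reticulum protein encoded by Tmem173, which recruits the kinase TBK1. TBK1 phosphorylates IRF3, a factor present in resting cells that drives the interferon-beta gene Ifnb1, and secreted interferon then acts through its receptor on a large set of antiviral genes, among them Irf7. IRF7 in turn drives most interferon-alpha genes, and all IRFs recognise repeats of the letters GAAA.

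Of the 23356 genes in the table, 11209 could be compared after treatment, having at least 1 FPKM in one of the 2 treated conditions and the status OK in both. A gene was called when the 2 conditions differed more than 2-fold on the scale of log2(FPKM + 0.1) and their intervals did not overlap. In treated BMDCs labelled Irf3/7-/-, 301 genes (2.69%) were called lower and 517 genes (4.61%) were called higher than in treated WT BMDCs, together 818 genes (7.30%). The median log2 difference of all compared genes was -0.02. Among genes with at least 10 FPKM in one of the treated conditions, 138 were called lower and 201 higher. A further 65 genes were more than 2-fold lower and 70 more than 2-fold higher with overlapping intervals, and were not called. Without treatment, 95 of 11004 genes (0.863%) were lower and 129 (1.17%) were higher in BMDCs labelled Irf3/7-/-, together 224 (2.04%). Of the genes lower after treatment, 33 were also lower without it, which was 11.0% of the treated and 34.7% of the untreated list. Of the genes higher after treatment, 81 were also higher without it, 15.7% of the treated and 62.8% of the untreated list. For genes of at least 10 FPKM the intervals reached 25.3% to 25.6% (medians over the 4 conditions) to either side of the value.

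**Figure D1:**
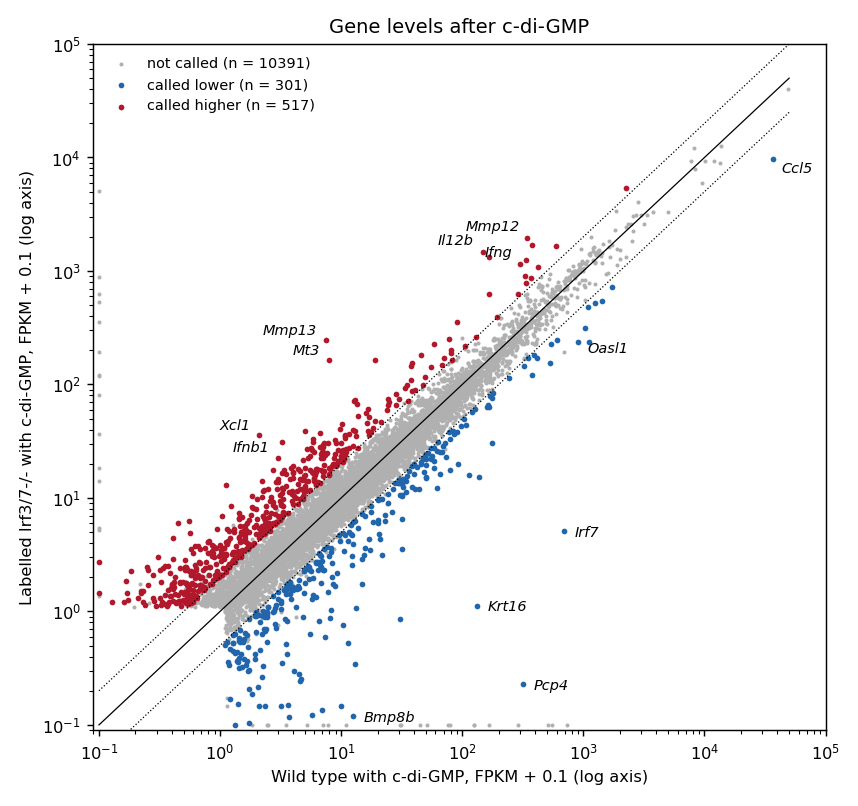
FPKM + 0.1 of each compared gene in treated WT BMDCs (horizontal log axis) and in treated BMDCs labelled Irf3/7-/- (vertical log axis), with blue points for genes called lower (301), red points for genes called higher (517) and grey points for the rest. The solid line marks equal levels and the dotted lines 2-fold differences. Irf7, Krt16, Pcp4 and Bmp8b lie far below the lines, and 37 of the 40 genes listed at 0 in one condition, seen along the axes, carry names of short RNAs (Mir, Snora, Snord, Rnu or Bc1).

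The targeted genes were examined first. Irf7 (chromosome 7, 141263183 to 141266424) stood at 15.2 FPKM in untreated and 687 FPKM (interval 504 to 871) in treated WT BMDCs. In cells labelled Irf3/7-/- it was listed at 1.07 FPKM without and 4.97 FPKM (interval 3.46 to 6.49) with c-di-GMP, a log2 difference of -3.71 without and -7.08 with treatment. Irf7 was thus called lower in both states, as the label would have it. Irf3 (chromosome 7, 44997648 to 45002848) stood at 19.9 FPKM (interval 15.4 to 24.5) in untreated WT cells against 7.74 FPKM (interval 5.55 to 9.96) in untreated cells labelled Irf3/7-/-, and was called lower there. After c-di-GMP, however, Irf3 was 15.8 FPKM (interval 11.63 to 20.01) in WT cells and 20.2 FPKM (interval 14.8 to 25.7) in cells labelled Irf3/7-/-, which goes against the label. An FPKM covers the whole gene, so exons outside a deleted part would still be counted, and the sources used here do not give the deleted exons of the allele. Bcl2l12, a BCL2-family gene directly beside Irf3 (chromosome 7, 44986900 to 44997579), moved in the same way. It was 7.97 FPKM in WT and 3.06 FPKM in labelled Irf3/7-/- cells without treatment, and 6.03 and 7.72 FPKM with it. For this reason the knockout cells are named by their label throughout, and every direction below is relative to the cultures so labelled.

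The dendritic cell and macrophage marker lists were at similar summed levels in both treated conditions, whereas those of plasmacytoid dendritic cells, lymphocytes and basophils were not. The counts of calls in these lists stand beside 2.69% lower and 4.61% higher over all genes compared after treatment. The 13 dendritic cell markers in the table summed to 4529 FPKM in treated WT cells and 4411 FPKM in treated cells labelled Irf3/7-/-. Most of that sum came from H2-Aa (1424 and 1184 FPKM), Ccr7 (1257 and 1208 FPKM) and H2-Ab1 (890 and 689 FPKM). The members compared went both ways, 6 below 0 and 6 above. Of the 12 that were compared, 0 were lower and 2 were higher (Flt3 and Clec9a, both of conventional dendritic cells), while Itgax, the CD11c gene, stood at 135 and 233 FPKM without a call. Cd209a, a marker of monocyte-derived dendritic cells, was close to 0 in all 4 conditions. Of 4 plasmacytoid dendritic cell markers compared, 2 were higher and 0 lower after treatment. The 7 in the table summed to 11.5 FPKM in treated WT and 18.2 FPKM in treated labelled cells, and to 16.1 and 11.5 FPKM without treatment. Macrophage markers also had similar sums, 324 and 345 FPKM, with 1 of 10 called (C1qc, higher). Those compared went both ways, 3 below 0 and 7 above, with log2 differences from -0.91 to 1.01. T cell markers were different. Of 15 compared, 13 were higher and 0 lower in treated cells labelled Irf3/7-/-, with a median log2 difference of 1.56, and their summed level was 205 FPKM in untreated WT, 160 FPKM in treated WT, 224 FPKM in untreated and 359 FPKM in treated cells labelled Irf3/7-/-. Cd8a was at 16.5 FPKM (interval 12.7 to 20.4) in treated WT and 60.8 FPKM (interval 46.6 to 74.9) in treated labelled cells, and the T cell receptor subunit gene Cd3e was at 5.41 and 23.3 FPKM, whereas Cd4 did not exceed 0.0892 FPKM in any of the 4 conditions.

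Of 9 NK cell markers compared, 8 were higher (median log2 difference 1.88), with a summed level of 722 FPKM in treated WT and 2356 FPKM in treated cells labelled Irf3/7-/-, against 748 and 798 FPKM without treatment. Most of that sum came from the granzyme genes Gzmb, at 336 and 1242 FPKM in the 2 treated conditions, and Gzma, at 329 and 900 FPKM. The NK receptor gene Ncr1, in contrast, did not exceed 0.661 FPKM. All 8 basophil and mast cell markers compared were higher after treatment, and 6 of them were also higher without it. Among all genes compared, 4.61% were higher after treatment and 1.17% without it. The basophil and mast cell sum was 71.7 and 85.1 FPKM in untreated and treated WT cells and 171 and 264 FPKM in those labelled Irf3/7-/-. The mast cell protease gene Mcpt2, however, was listed at 0 in all 4. The neutrophil list was mixed, with Ltf and Ngp lower and Mpo, Ctsg and Retnlg higher of 11 compared. In the treated Irf1-/- and Tmem173-/- cultures of the same series the T cell markers summed to 121 and 39.0 FPKM. The NK cell markers summed there to 32.7 and 18.2 FPKM, and the basophil and mast cell markers to 95.6 and 59.8 FPKM. Neutrophil markers summed to 1456 and 14623 FPKM there, against 1923 FPKM in treated WT and 1479 FPKM in treated cells labelled Irf3/7-/-. The part that these other cells had in the differences below was not tested.

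**Figure D2:**
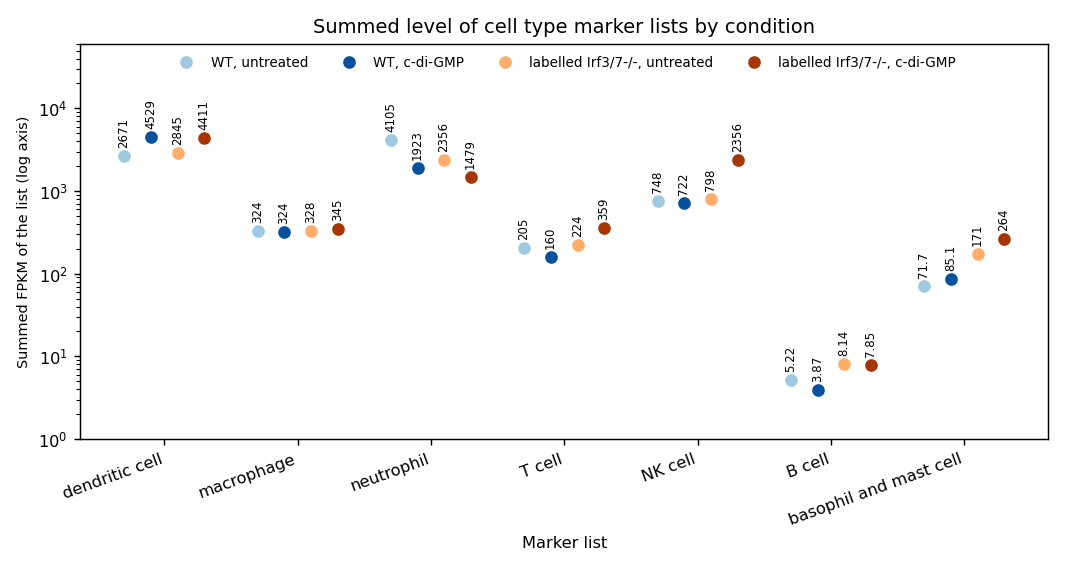
Summed FPKM (log axis) of 7 lists of cell type markers in the 4 conditions, 1 point per condition with its value beside it. The dendritic cell and macrophage sums are close between the 2 treated conditions, while the NK cell sum is 722 FPKM in treated WT and 2356 FPKM in treated BMDCs labelled Irf3/7-/-.

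The largest falls were led by genes that were close to 0 without c-di-GMP and high in treated WT cells. Pcp4, which encodes a small calmodulin-binding peptide known from Purkinje neurons, was 0.127 FPKM in untreated WT, 317 FPKM (interval 228 to 404) in treated WT, 0.172 FPKM in untreated and 0.128 FPKM (interval 0 to 0.310) in treated cells labelled Irf3/7-/-. Its log2 difference of -10.44 was the largest of all named falls, and the added 0.1 FPKM sets its size. The keratin gene Krt16 was 0.0523 FPKM untreated and 133 FPKM (interval 102 to 163) treated in WT cells, against 1.02 FPKM (interval 0.610 to 1.42) in treated labelled cells, and was listed at 0 in untreated ones. Bmp8b, a bone morphogenetic protein gene, stood at 12.5 FPKM in treated WT cells and at about 0.02 FPKM in each of the other 3 conditions.

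Secreted factors were among these genes as well. Il31, a cytokine gene usually tied to T helper cells, was at 12.9 FPKM in treated WT and 0.247 FPKM in treated labelled cells, and was listed at 0 in both untreated conditions. Nts, the neurotensin precursor gene, was at 30.3 and 0.755 FPKM in the 2 treated conditions. Ubd, which encodes the ubiquitin-like modifier FAT10, was detected in all 4 conditions, with 5.27 and 137 FPKM (interval 101 to 173) in untreated and treated WT cells and 3.54 and 15.3 FPKM (interval 10.9 to 19.7) in labelled cells. The other genes of the 20 largest falls at 10 FPKM or more were Fhod3, Cbln1, Plagl1, Mycl1, Asrgl1, Ccne1, Intu, Gm14446, 2310014L17Rik, Gm15056, Apol9b, Klf8 and BC100530, with log2 differences from -4.43 (Fhod3) to -2.28 (BC100530). Only Irf7, Cbln1, Mycl1 and BC100530 of the 20 were already called lower without treatment. For Gm15056 the listed FPKM lies above its own interval in both treated conditions.

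**Figure D3:**
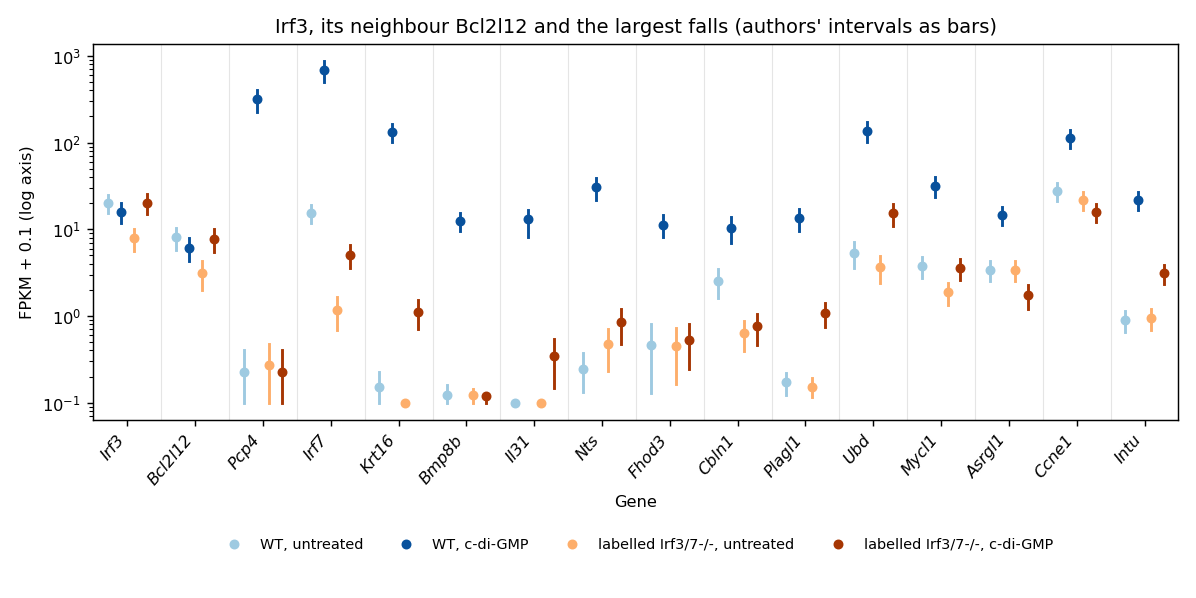
FPKM + 0.1 (log axis) of Irf3, its neighbour Bcl2l12 and 14 of the 20 genes with the largest falls in the 4 conditions, with vertical bars for the authors' intervals. The dark blue points (treated WT) stand far above the dark orange points (treated labelled Irf3/7-/-) for every gene but Irf3 and Bcl2l12, where the intervals of the 2 treated conditions overlap.

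In the treated Irf1-/- and Tmem173-/- cultures these genes lay at other levels, given here side by side because both share the treated WT condition. Pcp4 was 39.3 FPKM with Irf1-/- and 0.309 FPKM with Tmem173-/-. Irf7 was 969 FPKM with Irf1-/- and 3.37 FPKM with Tmem173-/-. Ubd was 0.895 FPKM in treated Irf1-/- cells and 0.0186 FPKM in treated Tmem173-/- cells, against the 15.3 FPKM in treated cells labelled Irf3/7-/-.

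Interferon genes moved in opposite directions. Of the 17 type I and III interferon genes in the table only Ifna4 and Ifnb1 could be compared after treatment. Ifnb1 was listed at 0 in both untreated conditions, and stood at 2.93 FPKM (interval 1.76 to 4.08) in treated WT and 22.6 FPKM (interval 15.8 to 29.3) in treated cells labelled Irf3/7-/-, a log2 difference of 2.90. Ifna4 was 3.53 FPKM (interval 1.91 to 5.06) in treated WT and 0.0484 FPKM (interval 0 to 0.123) in treated labelled cells. Interferon-alpha genes are close copies of one another, so reads could have been divided among them in ways the table does not show. The 2 genes of the list that were compared hence lay on opposite sides, Ifnb1 higher and Ifna4 lower.

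The other IRF genes were at similar levels in both genotypes. Of 8 IRF genes compared, Irf7 alone was called after treatment, and the median log2 difference of the family was -0.11. Irf5, a factor of Toll-like receptor signalling, was 368 FPKM in treated WT and 320 FPKM in treated labelled cells. Irf8, which is needed for dendritic cell development, was 303 and 322 FPKM, Irf1 was 245 and 262 FPKM, and Irf4 was 173 and 172 FPKM. Of the 17 interferon signalling genes, 0 were called in either direction, with 13 below and 4 above 0 (median log2 difference -0.28). Among them Usp18, a brake on the interferon receptor, was at 404 FPKM (interval 307 to 500) in treated WT and 236 FPKM (interval 180 to 291) in treated labelled cells, which did not exceed 2-fold.

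Antiviral effector genes leaned lower, most of them by less than 2-fold. Of 59 compared, 8 were called lower and 0 higher, beside 2.69% lower and 4.61% higher over all genes compared. In this list 51 lay below 0, and the median log2 difference was -0.50 against -0.02 for all genes. Oasl1, a 2'-5' oligoadenylate synthetase-like gene that restrains Irf7 translation, was 8.92 FPKM in untreated WT, 911 FPKM (interval 689 to 1133) in treated WT, 3.22 FPKM in untreated and 237 FPKM (interval 182 to 292) in treated labelled cells. Ifi27l2a, an interferon-inducible membrane protein gene, was 1107 FPKM (interval 617 to 1110) in treated WT and 235 FPKM (interval 133 to 237) in treated labelled cells, with 165 and 22.5 FPKM without treatment. Rsad2, which encodes viperin, was 1245 FPKM (interval 899 to 1588) and 518 FPKM (interval 381 to 654) in the 2 treated conditions and under 4 FPKM in both untreated ones. All 3 were hence far higher with than without c-di-GMP in the labelled knockout too, but below the treated WT level. The other 5 called members were Cmpk2, Oas1b, Oas1g, Ifi44 and Phf11a, with log2 differences from -1.67 (Ifi44) to -1.14 (Oas1b). The Oas1 genes are near-identical copies of one another, so their separate values are uncertain.

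Members that were not called included the most abundant ones. Isg15, the ubiquitin-like interferon-stimulated modifier, was 2262 FPKM (interval 1496 to 2756) in treated WT and 1339 FPKM (interval 905 to 1642) in treated labelled cells. Ifitm3, which blocks viral entry, was 1583 and 963 FPKM, and Bst2, the tetherin gene, was 1253 and 763 FPKM, with log2 differences of -0.72 for both. Without treatment 12 of 59 antiviral genes were called lower and 0 higher, beside 0.863% lower and 1.17% higher over all genes compared. Among the lower ones were Ifit1, Ifit2, Ifit3, Oas2 and Oas3, and the median log2 difference of the list was -0.55. None of those 5 was called after treatment, where Ifit1 stood at 337 and 185 FPKM and Ifit2 at 341 and 268 FPKM.

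Related lists leaned the same way with few calls, beside 2.69% lower and 4.61% higher over all genes compared. Of 33 nucleic acid sensing genes 27 lay below 0 (median log2 difference -0.21), with Tlr3, the receptor for double-stranded RNA, called lower (6.77 against 2.37 FPKM) and Ifi202b called higher (0.0272 against 1.10 FPKM). The DNA exonuclease gene Trex1, the highest of the list, was 325 and 227 FPKM and was not called. Of 20 GBP and IRG genes, which encode interferon-inducible GTPases that attack pathogen vacuoles, 19 lay below 0 (median -0.34), but only the weakly expressed Gbp1 was called (1.83 against 0.321 FPKM). Gbp2, the most abundant, was 1036 and 726 FPKM.

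Promoter sequences are shown for a few called genes, chosen after their values were seen, to show where an IRF-type element lies. They cover 250 bases before to 50 bases after the annotated start, taken from RefSeq (GRCm38.p6) and written from 5′ to 3′ on the gene's strand. Capitals mark every match on either strand to the IRF-type motif, which is GAAA, any 2 bases and GAAA again, or to the AP-1-type motif TGANTCA. The first 5 belong to genes called lower, of which Cxcl10 encodes the interferon-inducible chemokine IP-10, Apol9b an apolipoprotein L and Phf11a a PHD finger protein. Pcp4 is the largest fall and Mmp13, a collagenase gene, the largest rise.
Cxcl10: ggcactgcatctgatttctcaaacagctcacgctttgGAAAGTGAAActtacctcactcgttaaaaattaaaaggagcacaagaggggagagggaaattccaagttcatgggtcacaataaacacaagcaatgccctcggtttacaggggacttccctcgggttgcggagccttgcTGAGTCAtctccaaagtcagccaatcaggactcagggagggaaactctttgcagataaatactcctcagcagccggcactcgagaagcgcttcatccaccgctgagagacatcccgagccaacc
Rsad2: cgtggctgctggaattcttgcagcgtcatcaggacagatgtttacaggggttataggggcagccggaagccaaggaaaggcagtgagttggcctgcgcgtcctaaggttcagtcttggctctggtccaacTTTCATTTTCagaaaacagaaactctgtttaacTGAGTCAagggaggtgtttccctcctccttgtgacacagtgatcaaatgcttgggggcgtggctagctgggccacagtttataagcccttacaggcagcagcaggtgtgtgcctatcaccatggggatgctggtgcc
Oas1g: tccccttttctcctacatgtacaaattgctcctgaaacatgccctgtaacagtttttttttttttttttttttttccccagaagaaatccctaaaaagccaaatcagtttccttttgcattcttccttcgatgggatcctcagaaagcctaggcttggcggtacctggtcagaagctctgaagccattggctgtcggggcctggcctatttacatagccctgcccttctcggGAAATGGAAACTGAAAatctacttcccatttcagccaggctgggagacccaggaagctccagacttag
Apol9b: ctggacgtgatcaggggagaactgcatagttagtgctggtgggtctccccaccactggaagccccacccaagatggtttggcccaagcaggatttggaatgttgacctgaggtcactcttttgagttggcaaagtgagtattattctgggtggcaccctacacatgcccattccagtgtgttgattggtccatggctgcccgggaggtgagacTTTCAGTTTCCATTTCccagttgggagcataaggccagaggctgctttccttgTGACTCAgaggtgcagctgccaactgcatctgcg
Phf11a: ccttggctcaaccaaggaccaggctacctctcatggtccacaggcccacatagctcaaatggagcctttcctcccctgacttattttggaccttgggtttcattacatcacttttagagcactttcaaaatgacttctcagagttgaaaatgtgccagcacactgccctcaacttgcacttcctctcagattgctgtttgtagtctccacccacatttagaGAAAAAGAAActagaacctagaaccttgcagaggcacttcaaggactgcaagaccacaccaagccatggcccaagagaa
Pcp4: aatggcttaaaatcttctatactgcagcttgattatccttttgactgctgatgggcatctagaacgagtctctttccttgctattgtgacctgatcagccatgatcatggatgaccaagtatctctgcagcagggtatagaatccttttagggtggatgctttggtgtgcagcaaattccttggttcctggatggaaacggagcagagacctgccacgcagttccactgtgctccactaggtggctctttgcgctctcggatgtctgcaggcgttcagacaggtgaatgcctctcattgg
Mmp13: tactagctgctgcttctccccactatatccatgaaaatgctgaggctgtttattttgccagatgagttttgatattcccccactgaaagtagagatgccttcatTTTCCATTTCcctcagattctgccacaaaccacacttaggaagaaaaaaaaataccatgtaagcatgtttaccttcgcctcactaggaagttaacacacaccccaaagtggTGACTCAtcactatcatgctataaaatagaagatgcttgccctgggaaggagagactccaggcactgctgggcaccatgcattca
In Cxcl10 (chr5:92348840-92349139, minus strand) the IRF-type match began 213 bases before the start and an AP-1-type match 74 bases before it. In Rsad2 (chr12:26456403-26456702, minus strand) they began 120 and 87 bases before the start. Oas1g (chr5:120887564-120887863, minus strand) held 2 overlapping IRF-type matches, 18 and 12 bases before the start. Apol9b (chr15:77728822-77729121, plus strand) likewise held 2, which began 37 and 31 bases before it, and an AP-1-type match after the start. Apol9b had 2 annotated promoters, and one with an IRF-type match was shown by preference. Phf11a (chr14:59297473-59297772, minus strand) held 1, 29 bases before the start. Pcp4 (chr16:96467356-96467655, plus strand) held no match to either motif in this window. Mmp13 (chr9:7272264-7272563, plus strand) held both, the AP-1-type match 35 and the IRF-type match 146 bases before the start. A gene counted as holding a motif when any of its promoters did. A promoter was found for 199 of the 301 genes called lower, and 23 of these (11.6%) held the IRF-type motif. The share was 13 of 376 (3.46%) for genes called higher and 340 of 8402 (4.05%) for all compared genes with a promoter in the table. The AP-1-type motif was found in 21 (10.6%) of the genes called lower, 42 (11.2%) of those called higher and 528 (6.28%) of all compared. Over all 32851 promoters of the table the shares were 3.44% for the IRF-type and 7.81% for the AP-1-type motif. A match describes letters, not bound factors, and genes in 1 cluster, such as the Oas1 genes, can share a copied promoter.

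Chemokine genes divided into a lower and a higher group. Of 25 compared, 4 were called lower and 9 higher, beside 2.69% lower and 4.61% higher over all genes compared. Ccl5, which draws T cells and NK cells, was 796 FPKM in untreated WT, 36577 FPKM (interval 21537 to 37102) in treated WT, 954 FPKM in untreated and 9788 FPKM (interval 5493 to 10687) in treated cells labelled Irf3/7-/-. Cxcl10 was 24.1 and 1037 FPKM (interval 710 to 1332) in untreated and treated WT cells and 21.6 and 315 FPKM (interval 214 to 412) in labelled cells. Its locus overlaps that of Cxcl11 in the table, so the 2 could have exchanged reads. The monocyte chemokine genes Ccl2 (1087 against 484 FPKM) and Ccl12 (30.1 against 14.4 FPKM) were lower too. The higher group held the neutrophil chemokine genes Cxcl1, Cxcl2, Cxcl3 and Cxcl5, of which Cxcl3 lost its call with a pseudocount of 1 FPKM. Cxcl2 was one of them, with 24.6 FPKM (interval 15.9 to 31.4) in treated WT and 70.4 FPKM (interval 45.3 to 80.8) in treated labelled cells. The macrophage inflammatory protein genes Ccl3 and Ccl4 were also higher, Ccl3 with 375 FPKM (interval 229 to 412) against 1696 FPKM (interval 1024 to 1861). Xcl1, made mainly by CD8+ T cells and NK cells, was 10.4 and 2.01 FPKM in untreated and treated WT cells and 18.5 and 35.5 FPKM in labelled cells. The T cell and NK cell marker sums given above were higher in the same condition. Ccl17 was the highest chemokine gene without a call, with 13781 FPKM in treated WT and 12635 FPKM in treated labelled cells. Ccl22 could not be compared because it lacked the status OK.

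Among cytokines, 10 of 31 compared were called higher and 3 lower, beside 4.61% higher and 2.69% lower over all genes compared. The median log2 difference of the list was 0.65. Il12b, the shared p40 subunit of interleukins 12 and 23, was 4.59 FPKM in untreated WT, 148 FPKM (interval 114 to 182) in treated WT, 2.95 FPKM in untreated and 1474 FPKM (interval 1099 to 1849) in treated labelled cells. Il12a, the p35 subunit of interleukin-12, was 6.57 FPKM (interval 4.65 to 8.49) in treated WT and 37.6 FPKM (interval 28.1 to 47.0) in treated labelled cells. Il23a, the p19 subunit of interleukin-23, was 7.81 and 18.1 FPKM. All 3 subunit genes were thus higher after treatment. Without it Il12b was not called, and Il12a and Il23a, under 1 FPKM in both genotypes, were not compared. Tnf was 91.1 FPKM (interval 68.4 to 114) in treated WT and 355 FPKM (interval 266 to 443) in treated labelled cells, with 44.6 and 83.1 FPKM without treatment.

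Among cytokine genes that lymphocytes can express, calls went both ways. Il31 was lower, as given above, and Il4, with 3.30 and 2.45 FPKM in treated WT and treated labelled cells, and Lta, with 40.9 and 35.6 FPKM, were not called. Ifng, Csf2 and Il13 were higher. Ifng was 34.6 and 299 FPKM (interval 205 to 367) in untreated and treated WT cells and 44.0 and 1155 FPKM (interval 777 to 1421) in cells labelled Irf3/7-/-. Csf2, the GM-CSF gene, was 4.93 FPKM in treated WT and 38.8 FPKM in treated labelled cells, and Il13 was 0.537 and 2.29 FPKM. After treatment these 3 genes were higher in the same condition as the T cell, NK cell and basophil marker sums. In WT cells, however, Ifng was higher with than without c-di-GMP. The T cell sum there was 205 FPKM without and 160 FPKM with it, and the NK cell sum 748 and 722 FPKM. Untreated Il13 was 2.17 FPKM in WT and 1.17 FPKM in labelled cells, whose basophil and mast cell sum was the higher. The part of those other cells was not tested. The remaining members called higher were Il1f9, Csf3 and Vegfa. Il1b, the interleukin-1 beta gene, was called lower, with 154 and 611 FPKM (interval 469 to 753) in untreated and treated WT cells and 85.9 and 245 FPKM (interval 189 to 301) in labelled cells. Il18, another inflammasome-processed cytokine gene, was 4.92 and 2.25 FPKM in the 2 treated conditions, a call lost with a pseudocount of 1 FPKM, and Il33 was 21.6 and 9.63 FPKM. Il1rn, the interleukin-1 receptor antagonist gene, with 952 and 1161 FPKM, Il1a, with 389.5 and 266 FPKM, and Il6, with 339 FPKM (interval 228 to 410) and 580 FPKM (interval 383 to 691), were not called.

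Costimulatory genes of dendritic cells differed little. Of 35 TNF superfamily and costimulation genes, 2 were lower and 5 higher (median log2 difference -0.03). Over all genes compared, 2.69% were lower and 4.61% higher. Cd40 was 432 FPKM (interval 325 to 540) in treated WT and 305 FPKM (interval 226 to 384) in treated labelled cells, from 37.0 and 46.3 FPKM without treatment. Ccr7, the receptor that guides mature dendritic cells to lymph nodes, was 1257 and 1208 FPKM. The B cell survival factor gene Tnfsf13b (2.77 against 0.675 FPKM) and the CD30 ligand gene Tnfsf8 (34.1 against 11.2 FPKM) were called lower. Those called higher, Icos, Ctla4, Fasl, Tnfsf14 and Il18rap, are largely genes of activated lymphocytes, for example Ctla4 with 3.30 and 17.5 FPKM, and they were higher in the same condition as the T cell and NK cell markers. Among 23 NF-kB genes only Nfkbiz, an inducible regulator of secondary response genes, was called, with 6.71 FPKM (interval 5.12 to 8.30) in treated WT and 22.3 FPKM (interval 17.3 to 27.3) in treated labelled cells. Nfkbia, the gene of the inhibitor IκBα, was 396 and 486 FPKM.

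Antigen presentation genes leaned slightly lower. Of 29 MHC class I genes 26 lay below 0 (median log2 difference -0.30), and only H2-M2, a non-classical class I gene, was called (175 against 76.4 FPKM). The class I genes resemble one another, so reads can be split between them. B2m, the shared light chain gene, was 8294 and 7938 FPKM in the 2 treated conditions. H2-K1 was 2003 FPKM (interval 1479 to 2527) in treated WT and 1530 FPKM (interval 1145 to 1914) in treated labelled cells. Of 13 class II genes the master regulator Ciita alone was called, with 38.5 FPKM (interval 27.29 to 49.95) and 18.9 FPKM (interval 13.02 to 24.85), a log2 difference of -1.02 that was not called with a pseudocount of 1 FPKM or after centring on the median. Cd74, the invariant chain gene, was 4983 and 3336 FPKM and was not called. Of 36 inflammasome and cell death genes, Casp12 (2.24 against 0.567 FPKM) and the BH3-only gene Pmaip1 (96.6 against 43.2 FPKM) were lower and Bcl2 (2.51 against 9.57 FPKM) was higher, with a median of -0.34. Over all genes compared, 2.69% were lower and 4.61% higher.

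Enzymes that make immune mediators held 5 genes called lower and 2 higher of 25, beside 2.69% lower and 4.61% higher over all genes compared. Ptges, which makes prostaglandin E2, was 0.470 and 20.8 FPKM (interval 16.1 to 25.5) in untreated and treated WT cells and 0.386 and 4.25 FPKM (interval 3.22 to 5.28) in labelled cells. Irg1, which makes itaconate, was 1717 FPKM (interval 1248 to 2186) in treated WT and 729 FPKM (interval 548 to 909) in treated labelled cells. The tryptophan pathway genes Ido1 (3.36 against 0.751 FPKM), Kynu (168 against 78.9 FPKM) and Kmo (24.4 against 8.87 FPKM) were all lower. Nos2, the inducible nitric oxide synthase gene, was higher with and without treatment, with 15.2 and 334 FPKM (interval 248 to 420) in untreated and treated WT cells and 78.6 and 780 FPKM (interval 558 to 1002) in labelled cells. Alox12 was higher as well, while Arg1, with 339 and 631 FPKM, was not called.

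Cell cycle genes were mostly at similar levels, with 3 of 41 called lower and 1 higher. Over all genes compared, 2.69% were lower and 4.61% higher. The 3 lower genes of the list all encode G1 cyclins. Ccne1 was 27.4 and 113 FPKM (interval 85.8 to 139) in untreated and treated WT cells and 21.8 and 15.8 FPKM (interval 12.0 to 19.5) in labelled cells. Ccnd1 was 16.9 FPKM in treated WT and 4.22 FPKM in treated labelled cells, and Ccnd2 was 394 and 180 FPKM. The cyclin-dependent kinase inhibitor gene Cdkn2c was higher (2.11 against 5.59 FPKM), and Cdkn1a, the most abundant of the list, was 834 and 897 FPKM.

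The largest rise was that of Mmp13, a secreted collagenase gene. It was 4.96 FPKM in untreated WT, 7.35 FPKM (interval 5.57 to 9.13) in treated WT, 26.3 FPKM in untreated and 246 FPKM (interval 187 to 305) in treated cells labelled Irf3/7-/-, a log2 difference of 5.05. Mmp19, a further matrix metalloproteinase gene, was 18.8 FPKM (interval 13.8 to 23.8) in treated WT and 166 FPKM (interval 123 to 208) in treated labelled cells. Its locus overlaps Tmem198b, another of the 20 largest rises, so reads of the 2 cannot be told apart. Mmp12, the macrophage elastase gene, fell with c-di-GMP in WT cells from 977 to 343 FPKM (interval 258 to 426), and was 1876 and 1952 FPKM (interval 1341 to 2562) in untreated and treated labelled cells. Of 20 genes for matrix proteases and matrix, 8 were called higher and 0 lower (median log2 difference 0.69). Over all genes compared, 4.61% were higher and 2.69% lower. The other called members of the list were Mmp8, Mmp9, the tissue plasminogen activator gene Plat, Serpinb2 and the fibronectin gene Fn1. Plaur, the urokinase receptor gene, was 364 and 550 FPKM and was not called.

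**Figure D4:**
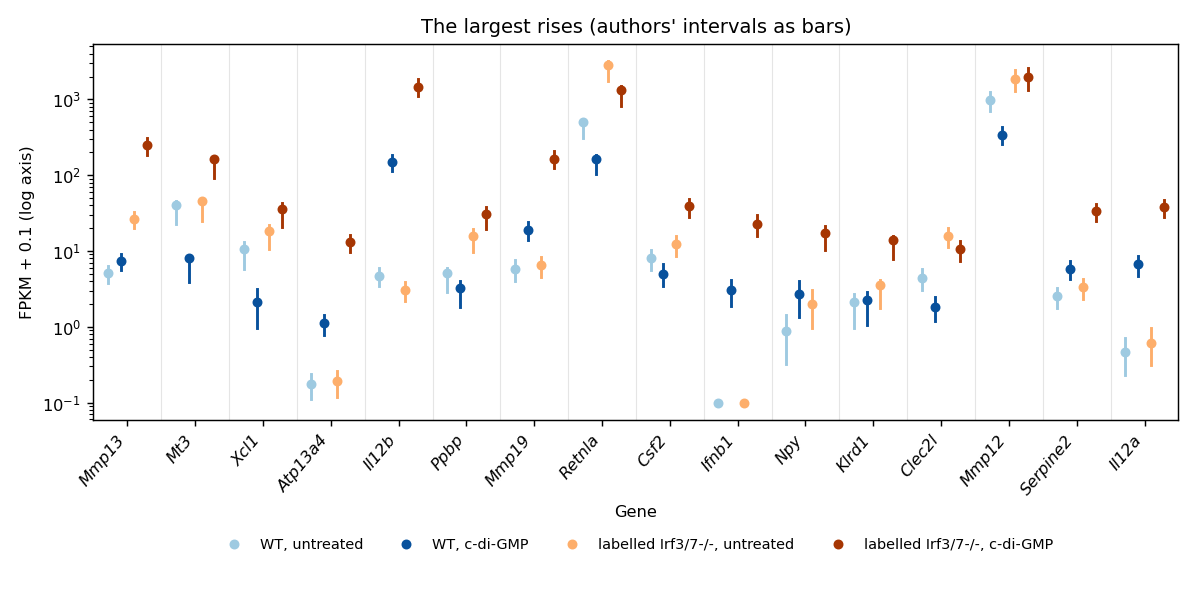
FPKM + 0.1 (log axis) of the 16 genes with the largest rises in the 4 conditions, with vertical bars for the authors' intervals. For each gene the interval of treated BMDCs labelled Irf3/7-/- (dark orange) lies above that of treated WT (dark blue), and Mmp13, Ppbp, Retnla and Clec2l are also higher without treatment.

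Other large rises were of mixed function. Mt3, a metallothionein gene, was 40.5 and 7.87 FPKM (interval 3.84 to 8.80) in untreated and treated WT cells and 45.7 and 164 FPKM (interval 92.3 to 164) in labelled cells, so c-di-GMP moved it in opposite directions. The common metallothionein genes Mt1 (504 against 636 FPKM) and Mt2 (443 against 680 FPKM) were not called, nor were the ferritin genes Fth1 (10005 against 9216 FPKM) and Ftl1 (8173 against 12122 FPKM). Retnla, an interleukin-4-induced gene of alternatively activated cells, was higher in both states, with 500 and 166 FPKM (interval 103 to 184) in untreated and treated WT cells and 2855 and 1329 FPKM (interval 825 to 1490) in labelled cells. Further members of the 20 largest rises were Atp13a4, Ppbp, Npy, Klrd1, Clec2l, Serpine2, Pf4, Ms4a4b and Ctla4, with log2 differences from 3.55 (Atp13a4) to 2.37 (Ctla4). Klrd1 and Ms4a4b are lymphocyte genes and stood beside the higher T cell and NK cell markers. In treated Irf1-/- cells Mt3, Atp13a4, Il12b, Mmp19, Csf2, Klrd1, Il12a, Tmem198b, Ms4a4b and Ctla4 were listed below treated WT. The rest of the 20 were listed above it there, for example Npy (18.2 FPKM) and Retnla (913 FPKM). In treated Tmem173-/- cells only Mmp13, Mt3, Ppbp, Klrd1, Clec2l, Mmp12 and Pf4 of the 20 were listed above it.

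Genes of glycolysis and of the hypoxia response leaned higher. Of 29 compared, 25 lay above 0, 6 were called higher and 0 lower, and the median log2 difference was 0.67. Over all genes compared, 4.61% were higher and 2.69% lower. Egln3, the oxygen-sensing prolyl hydroxylase PHD3, was 10.7 and 13.3 FPKM (interval 9.63 to 17.0) in untreated and treated WT cells and 5.85 and 66.8 FPKM (interval 48.3 to 85.3) in labelled cells. Ndrg1 was 34.6 FPKM (interval 26.8 to 42.4) in treated WT and 99.6 FPKM (interval 76.7 to 123) in treated labelled cells, and the mitophagy gene Bnip3 was 33.6 and 92.6 FPKM. The glucose transporter gene Slc2a3, the enolase gene Eno2 and the adrenomedullin gene Adm completed the called members. Without treatment the median of the list was 0.05 and 0 of 27 were called. The most abundant enzymes, Gapdh (822 against 1101 FPKM) and Aldoa (754 against 1012 FPKM), were not called.

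Of 20 genes of metallothioneins and metal transport 4 were higher and 1 lower, beside 4.61% higher and 2.69% lower over all genes compared. Hmox1, the heme oxygenase gene, was 85.9 and 423 FPKM (interval 319 to 528) in untreated and treated WT cells and 208 and 1074 FPKM (interval 807 to 1337) in labelled cells. The iron exporter gene Slc40a1 (2.73 against 8.14 FPKM) and the transferrin receptor gene Tfrc (10.9 against 25.3 FPKM) were higher, and the zinc importer gene Slc39a8 was lower (3.69 against 1.32 FPKM). Of 35 cholesterol and lipid genes Sqle, Apoe and Cd36 were higher and Nr1h3, which encodes the oxysterol receptor LXRα, was lower (6.85 against 2.66 FPKM), beside 4.61% higher and 2.69% lower over all genes compared. Cd36, a scavenger receptor gene, was 77.8 FPKM (interval 58.5 to 97.1) in treated WT and 251 FPKM (interval 181 to 320) in treated labelled cells.

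The calls of the remaining lists stand beside 2.69% lower and 4.61% higher over all genes compared. Of 27 C-type lectin and Fc receptor genes 4 were lower (Fcgr4, Siglec1, Msr1 and Marco) and 4 higher (Clec1b, Clec4n, Clec9a and Fcrls). Siglec1, an interferon-inducible adhesion receptor of macrophages, was 10.8 and 4.66 FPKM in the 2 treated conditions, and Fcgr4 was 47.6 and 21.8 FPKM. Of 26 AP-1 and immediate early genes Maf, Egr1 and Egr3 were higher, and of 26 unfolded protein and stress response genes only Nqo1, a target of the antioxidant factor NRF2, was called, with 6.94 FPKM (interval 4.89 to 8.94) and 28.3 FPKM (interval 20.6 to 35.9). Ctsg, Ctsw and Lipa were higher among 21 cathepsin and lysosome genes. The chemokine receptor gene Cxcr5 was lower, with 3.57 FPKM in treated WT and 1.62 FPKM in treated labelled cells, and Cxcr6 was higher, with 5.52 and 27.4 FPKM. Over all 24 lists, which were chosen with results of these data known, 40 of 616 compared genes were lower (6.49%, against 2.69% of all genes compared) and 65 higher (10.6%, against 4.61%).

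**Figure D5:**
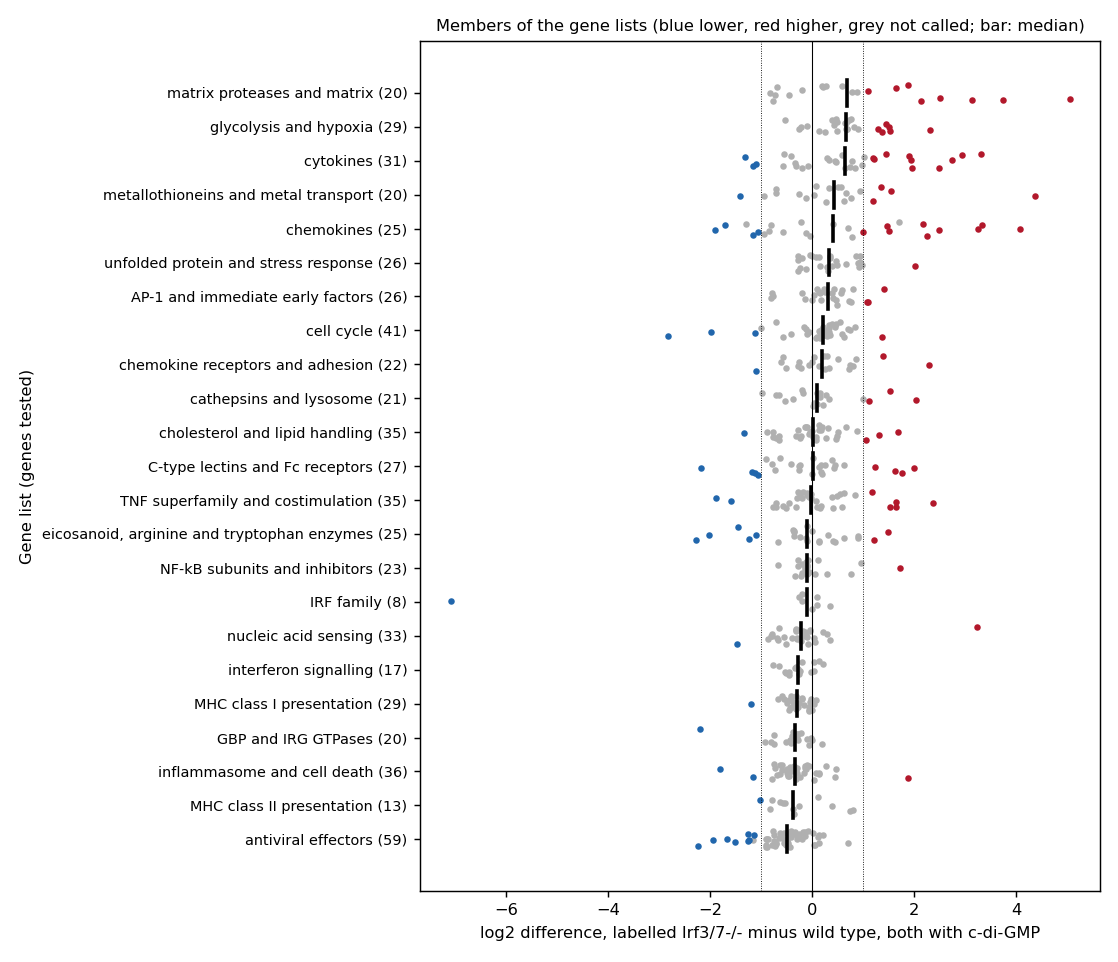
Log2 difference (treated BMDCs labelled Irf3/7-/- minus treated WT) of the compared members of the gene lists, one row per list with the number compared in brackets, leaving out the list of 2 interferon genes. Blue points are genes called lower, red points genes called higher, black bars medians, and dotted lines mark 2-fold. Medians run from -0.50 for antiviral effectors to 0.69 for matrix proteases and matrix, against -0.02 over all compared genes.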

How the data were processed

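RNA-seq was performed on BMDCs of 4 genotypes, with or without c-di-GMP, from stranded mRNA libraries sequenced as short paired-end reads. The deposited table of FPKM values, with a lower and an upper interval bound for each, was made by the authors with Cuffdiff, for which the submitters' processing notes give version 1.06. It combines the 2 samples of each condition into 1 value. The methods name a target depth and a strand-specific setting for the analysis in SeqMonk, but the aligner, the annotation, the reads obtained per sample and how Cuffdiff treated strand are not given in the sources used here, so the depth behind each value is unknown and the deposited intervals stand in its place. The notes name the build mm9, but the loci followed GRCm38: of 21522 genes matched by symbol to RefSeq GRCm38.p6, 21286 overlapped their RefSeq locus. Coordinates are given as in the table, counted from 1. Groups were taken from the labels, and the table's column named TM173GDP was read as treated Tmem173-/-. A set of 4 columns that matches no sample was not used.

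FPKM values were compared on the scale of log2(FPKM + 0.1), which understates the difference of genes with low values. A gene was compared when either condition reached 1 FPKM and both had the status OK (109 genes lacked it in a treated condition), and called when it differed more than 2-fold with intervals that did not overlap. The statistics were checked on simulated data and computed with Python 3.11.15, NumPy 2.4.6 and pandas 2.3.3, and plots were drawn with Matplotlib 3.10.9. Genes named were Irf3 and Irf7, the 20 largest called falls and rises with at least 10 FPKM, called members of the gene lists with their most abundant uncalled members, the cell type markers, called genes within 1 Mb of Irf3 or Irf7, and genes called in opposite directions with and without treatment. The genes shown by their promoters and a few others were chosen after their values were seen and are named as such. The gene lists, markers and thresholds were chosen with earlier results of these data known. Alternatives were other pseudocounts, filters, fold thresholds, the intervals or the fold alone, and centring on the median.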

Additional observations from a re-analysis of the deposited data

Results flagged for a closer look

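Among genes with at least 10 FPKM, 3 were called in opposite directions with and without c-di-GMP in BMDCs labelled Irf3/7-/- against WT, and the difference between the 2 states was not tested. Cav1, the caveolin-1 gene, was 12.3 FPKM in untreated WT and 43.2 FPKM in untreated labelled cells (log2 difference 1.81), but 27.7 and 13.4 FPKM after treatment (log2 difference -1.05). H2-M2, a non-classical MHC class I gene, was 9.92 and 26.3 FPKM without treatment (log2 difference 1.40) and 175 and 76.4 FPKM with it (log2 difference -1.20). Il33, the gene of an alarmin cytokine, was 4.58 and 15.9 FPKM without treatment (log2 difference 1.77) and 21.6 and 9.63 FPKM with it (log2 difference -1.16). In treated Irf1-/- cells the same genes stood at 135 FPKM (Cav1), 217 FPKM (H2-M2) and 67.8 FPKM (Il33).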

How the results depend on the processing

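No paired analysis was possible because the replicates of each condition had been combined into 1 value, and for the same reason no replicate could be left out. None of the alternatives could reverse the direction of a call, since they alter only the added FPKM, the filters, the thresholds or a small common shift. Direction was therefore not tested by them. Of the 301 genes called lower after treatment, 183 would be counted with at least 5 FPKM, 485 with a fold threshold of 1.5, 80 with a threshold of 4, and 486 from the intervals alone. The 517 genes called higher became 329 with a pseudocount of 1 FPKM, 277 with at least 5 FPKM and 127 with a threshold of 4. Without treatment the 95 lower genes became 47 with a pseudocount of 1 FPKM, 42 with at least 5 FPKM, 156 with a threshold of 1.5, 17 with a threshold of 4 and 156 from the intervals alone. The 129 higher ones became 71, 70, 194, 19 and 194 under the same settings. In the gene lists the 40 lower genes became 76 with a threshold of 1.5 or the intervals alone and 8 with a threshold of 4, and the 65 higher ones became 23 with a threshold of 4. Irf3 without treatment (log2 difference -1.36) was not called with a threshold of 4. Of 178 other named genes, Bcl2l12 and Klk1b11 among them without a call after treatment, a threshold of 4 lost the calls of 106. A pseudocount of 1 FPKM lost 24 calls and median centring, which moved all values by 0.02, lost 1. With at least 5 FPKM, 36 of the genes could not be compared. The genes lost with a pseudocount of 1 FPKM included Cxcl3, Cxcr5, Ciita, Il18, Il18rap, Marco, Fcrls, Plat, Sqle, Maf, Egr3, Flt3 and Hbb-b1. Leaving out genes whose FPKM lies outside its own interval, an alternative chosen after seeing the data, left 176 of the 178 unchanged and 2 uncompared. Of genes within 1 Mb of Irf3 or Irf7, 6.19% were called after treatment, and 9.83% within 5 Mb, against 7.30% of all genes compared. Without treatment 4.3% were called within 1 Mb and 2.96% within 5 Mb, against 2.04% of all genes compared. The depth behind the values is unknown, and no value here measures the spread between samples.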

Other observations

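A few platelet and megakaryocyte genes are given here as values, with no list behind them: Pf4 and Ppbp were among the 20 largest rises, and the others were chosen after their values were seen and because they were called higher in treated BMDCs labelled Irf3/7-/-. Pf4, the platelet factor 4 gene, was 17.3 and 12.9 FPKM in untreated and treated WT cells and 38.2 and 73.3 FPKM in labelled cells. Ppbp, another platelet chemokine gene, was 5.06 and 3.13 FPKM in WT and 15.6 and 30.9 FPKM in labelled cells. The platelet integrin genes Itga2b (3.13 against 12.0 FPKM after treatment) and Itgb3 (7.18 against 30.3 FPKM) and the multimerin gene Mmrn1 (0.0739 against 1.15 FPKM) are the others. In treated Tmem173-/- cells Pf4 was 166 FPKM and Ppbp 90.5 FPKM.

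A few genes typical of other tissues differed as well. Col1a2, a type I collagen gene, was 6.78 FPKM in treated WT and did not exceed 0.0701 FPKM in the other 3 conditions, whereas its partner Col1a1 did not exceed 0.0722 FPKM in any. The adult beta-globin gene Hbb-b1 was 35.7 FPKM in treated WT and 72.0 FPKM in treated labelled cells. It overlaps Hbb-b2 in the table.

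Within 1 Mb of Irf3, 2 of 61 compared genes were lower after treatment (Fcgrt and Plekha4) and 3 were higher (Klk1b27, Rcn3 and Spib). Without treatment 3 of 60 were lower (Bcl2l12, Klk1b11 and Spib) and Klk1b27 was higher. Within 1 Mb of Irf7, 1 of 36 compared genes was higher after treatment (Lrdd), and 0 of 34 were called without it. Over all genes compared, 2.69% were lower and 4.61% higher after treatment, and 0.863% and 1.17% without it. Spib, an ETS factor gene of plasmacytoid dendritic cells and B cells, was 6.202 and 0.792 FPKM in untreated and treated WT cells and 2.64 and 3.56 FPKM in labelled cells.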
